A study of Mus musculus with 6 samples.

Results

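The 8 genes Cpeb1, Ybx2, Patl2, Zar1, Btg4, Mos, Gpr3 and Pde3a encode proteins that store, translate and clear maternal mRNA or hold or end meiotic arrest. They were found by symbol among the 25164 gene symbols of the day 1 expression table, which lists all 8. The data are 6 libraries of whole C57BL/6 mouse ovaries: 3 from animals labelled hnRNPL flox/flox;Stra8-cre (cKO) and 3 labelled wild type. Both groups are given as day 1, and the protocol text that they share speaks of a hormone challenge without naming it. Stra8-cre expresses Cre recombinase from a germ cell promoter, so Hnrnpl, an RNA-binding regulator of splicing, is targeted in germ cells while the ovary's somatic cells are profiled with them. Whether replicate libraries stem from different animals is not stated, so p-values measure only the spread between these libraries. Transcript levels are the authors' FPKM, fragments scaled to transcript length and to mapped fragments.

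A growing oocyte makes more mRNA than it translates. RNA-binding proteins mask these messages with short tails, cytoplasmic polyadenylation switches them on during maturation, and deadenylation then removes them before the embryo's own genes take over. Over the same time the oocyte waits in prophase of the first meiotic division under high cyclic AMP, resumes meiosis when that cyclic AMP is hydrolysed, and stops again at the second metaphase. Around birth, when primordial follicles form, oocytes are small and have not yet built up these stores.

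Hnrnpl itself, counted over the whole tissue and the whole gene, stood at 100.5, 81.5 and 85.2 FPKM in cKO ovaries, against 104.1, 93.8 and 101.9 FPKM in wild type. The groups overlapped (log2 fold change -0.17, SE 0.13, limma adjusted p = 0.571). After the libraries were rescaled by median of ratios, the log2 fold change of Hnrnpl was -0.26 (SE 0.08, limma adjusted p = 0.15). Stra8 was listed at 0 in all 6 libraries. Depth, estimated from the steps of low FPKM values, ran from 7200000 to 12200000 fragments in cKO and from 11100000 to 14300000 in wild type. The FPKM of cKO replicate 1, the shallowest library, summed to 335667, against 223845 to 246121 in the other 5. Its median-of-ratios scaling factor was 1.175, against 0.9493 to 0.9887 in the other 5. Pregranulosa markers of the ovary were present (9 of 10 at a mean of at least 1 FPKM), and 4 markers of testis supporting cells summed to 6.1 to 9.3 FPKM in cKO ovaries, against 7.2 to 9 FPKM in wild type.

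Of the 8 genes, 4 reached the mean of 1 FPKM over all libraries that was required for testing. None of these 4, Ybx2, Cpeb1, Gpr3 and Pde3a, passed limma at an adjusted p under 0.05. In that fit 0.121% of 12442 tested genes passed, 0.0482% higher and 0.0723% lower in cKO. At an unadjusted p under 0.05 Cpeb1 and Pde3a passed among the 4, as did 14.2% of all tested genes. Cpeb1 was higher and Pde3a lower in every cKO library than in any wild type library, which also held for 15.5% (higher) and 7.03% (lower) of tested genes. The other 4 genes, Patl2, Zar1, Btg4 and Mos, stayed under 1 FPKM on average. Btg4, Mos and Zar1 were lower in every cKO library than in any wild type library, as were 7.07% of the 7724 genes with a mean above 0 and under 1 FPKM, while 5.23% of these were higher and 12.3% were apart in either direction. With no filter on level Btg4 had a limma adjusted p of 0.0749, in a fit that called 0.0248% of 20166 genes, all lower. When the libraries were also rescaled by median of ratios its adjusted p was 0.0436, and that fit called 0.238% of genes, 0.0942% higher and 0.144% lower. In whole ovaries fewer cells of a type and less RNA per cell cannot be told apart. The exact two-sided permutation test over the 20 splits of 6 libraries cannot give less than p = 0.1, which it gave for Cpeb1, Pde3a, Btg4, Mos and Zar1.

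**Figure D1:**
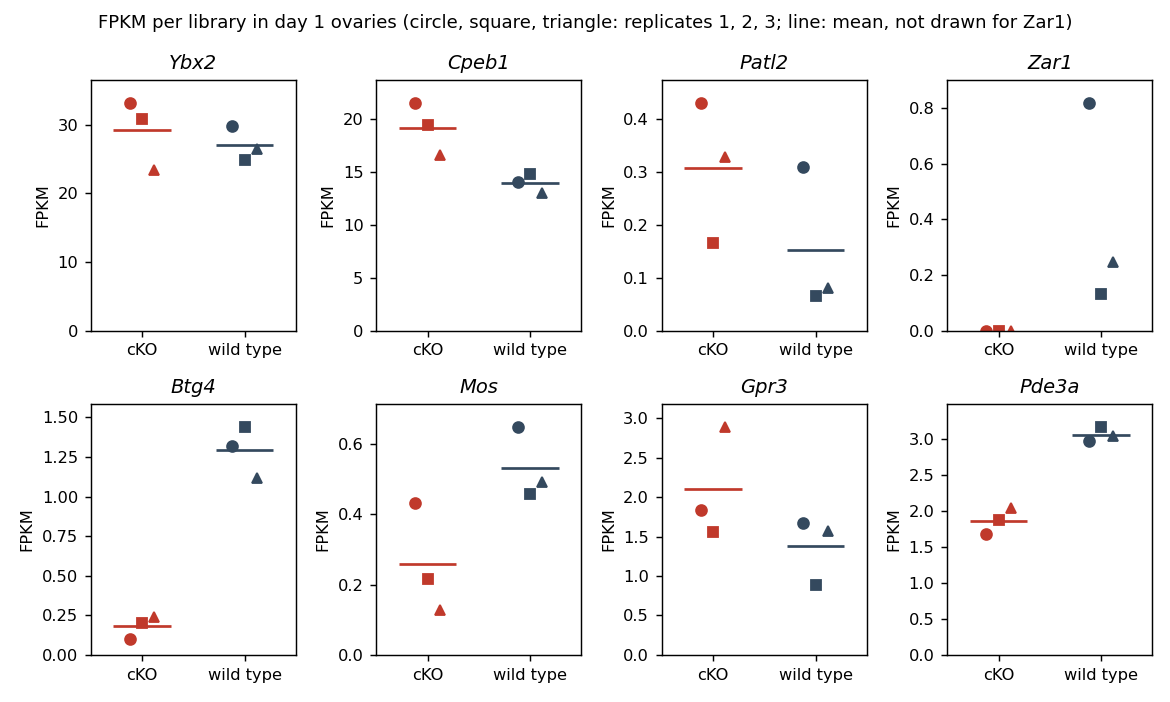
FPKM of each of the 8 genes in each library, cKO left and wild type right, each panel on its own linear axis from 0. Points are libraries and lines group means; Zar1 has no line since 3 of its values are listed at 0. The groups do not touch for Cpeb1, Zar1, Btg4, Mos and Pde3a, and overlap for Ybx2, Patl2 and Gpr3.

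Of the 8 genes Ybx2 had the highest mean FPKM in both groups. Ybx2 (MSY2) is the Y-box protein of germ cells that packages and stabilises maternal messages. Its gene lies on chromosome 11 from 69935805 to 69941604 (GRCm38, as for all coordinates here). It stood at 33.2, 30.8 and 23.4 FPKM in cKO replicates 1, 2 and 3 and at 29.8, 24.9 and 26.5 FPKM in wild type replicates 1, 2 and 3. The lowest and the highest of the 6 values were both cKO libraries. The log2 fold change was 0.09 (SE 0.15, limma adjusted p = 0.792), and its sign was positive in 19 and negative in 3 of the 22 fits that were run. Its mean level over the 6 libraries was above that of 89.1% of tested genes.

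Cpeb1 binds the cytoplasmic polyadenylation element of stored messages, first keeping them silent and later recruiting the polymerase that lengthens their tails. The gene lies on chromosome 7 from 81347026 to 81458001. It stood at 21.6, 19.5 and 16.6 FPKM in cKO ovaries, against 14.1, 14.8 and 13.0 FPKM in wild type. All 3 cKO values lay above all 3 wild type values, and the cKO mean of 19.2 ± 2.52 FPKM was 1.38 times the wild type mean of 13.9 ± 0.891 FPKM (SD, n = 3 each; exact permutation p = 0.1). The log2 fold change on log2(FPKM + 1) was 0.43 (SE 0.12, limma adjusted p = 0.202). It was positive in all 22 fits, from 0.32 to 0.53, with adjusted p from 0.0946 to 0.595. Rescaled by median of ratios, Cpeb1 came to 18.4, 20.2 and 17.0 FPKM in cKO ovaries, against 14.2, 15.0 and 13.7 FPKM in wild type, still apart.

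The promoter window of Cpeb1 is shown because the gene's groups did not overlap and a RefSeq entry exists for it. It is chr7:81454709-81455008 on the minus strand (GRCm38.p6), 250 bases before to 50 after the annotated start, and capitals mark the E-box motif CANNTG, which basic helix-loop-helix proteins such as the oocyte factors Figla and Sohlh1 are known to bind.
Cpeb1: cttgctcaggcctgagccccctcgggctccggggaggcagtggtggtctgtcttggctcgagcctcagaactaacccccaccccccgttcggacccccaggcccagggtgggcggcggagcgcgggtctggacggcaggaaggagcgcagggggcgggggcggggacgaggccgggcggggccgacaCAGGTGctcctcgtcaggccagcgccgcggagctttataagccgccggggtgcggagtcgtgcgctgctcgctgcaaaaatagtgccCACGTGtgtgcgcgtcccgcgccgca
Its E-boxes begin at -63 (CAGGTG) and 25 (CACGTG), counted from the start.

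Patl2, an RNA-binding protein of oocytes that represses stored messages and whose loss in women blocks oocyte maturation, was near the limit of detection. The gene lies on chromosome 2 from 122120108 to 122186189. It stood at 0.432, 0.165 and 0.329 FPKM in cKO ovaries, against 0.31, 0.0648 and 0.0805 FPKM in wild type, about 4 to 9 fragments per cKO library and 2 to 9.9 per wild type library. The wild type replicate 1 value lay among the cKO values, so the groups overlapped (exact permutation p = 0.2).

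Zar1, a maternal-effect protein that binds and stabilises mRNA in the growing oocyte, was listed at 0 in all 3 cKO libraries. The wild type libraries had 0.819, 0.133 and 0.246 FPKM, about 14.4, 2.3 and 3.4 fragments. At the estimated depths a value of 0 in cKO still allows up to 3 fragments, which is 0.339, 0.226 and 0.2 FPKM in cKO replicates 1, 2 and 3. Wild type replicate 1 lay above all of these limits, replicate 2 below all of them and replicate 3 between them. The wild type values carry counting error too, and replicate 3 stands for only about 3.4 fragments. At this depth a lower level was therefore resolved against wild type replicate 1 alone. With no filter limma gave an adjusted p of 0.385. The gene lies on chromosome 5 from 72577113 to 72581361. Its promoter window, chr5:72581035-72581334 on the minus strand, holds the E-box letters CAGGTG at -83, as the Cpeb1 window does, and CAGCTG at -25. The letters CAGGTG are not particular to these genes. They are also in a window of Ybx2 (-237), and Patl2 (-94) and Btg4 (-70) hold CACCTG, the same site on the other strand. The share of all windows with these letters was not counted.
Zar1: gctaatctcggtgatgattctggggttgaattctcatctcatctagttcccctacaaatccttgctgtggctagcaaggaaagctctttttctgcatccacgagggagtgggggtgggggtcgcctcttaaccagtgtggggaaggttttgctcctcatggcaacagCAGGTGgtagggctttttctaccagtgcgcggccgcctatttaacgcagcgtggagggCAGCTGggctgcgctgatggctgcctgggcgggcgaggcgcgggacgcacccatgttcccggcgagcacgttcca

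Of the 7 genes detected in both groups, Btg4 had the ratio of group means furthest from 1. Btg4 is the adaptor that brings the CCR4-NOT deadenylase to maternal messages when they are cleared during oocyte maturation. The gene lies on chromosome 9 from 51102147 to 51119924. It stood at 0.102, 0.203 and 0.241 FPKM in cKO ovaries, against 1.32, 1.44 and 1.12 FPKM in wild type. The groups were far apart, and the means were 0.182 ± 0.0720 FPKM in cKO ovaries, against 1.29 ± 0.162 FPKM in wild type, a ratio of 0.141 (SD, n = 3 each; exact permutation p = 0.1). These FPKM stand for about 0.9, 2.8 and 3.8 fragments in cKO, against 24.3, 25.6 and 16 fragments in wild type. The ratio is therefore known only roughly. On log2(FPKM + 1), which shrinks changes of low genes, the difference was -0.96, and with a pseudocount of 0.1 it was -2.33. The mean over all 6 libraries, 0.738 FPKM, kept Btg4 out of the test. In the 10 fits without a filter the adjusted p ran from 0.0436 to 0.379, under 0.05 only with median-of-ratios scaling.

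The promoter window of Btg4, chr9:51115751-51116050 on the plus strand, is shown because the groups of Btg4 did not overlap. Like those of Cpeb1 and Zar1, it belongs to a RefSeq start that lies inside the gene span given above, not at its outer end. Its E-boxes begin at -114 (CAGATG) and -70 (CACCTG), and at 39% its share of G and C was the lowest of the 7 windows found.
Btg4: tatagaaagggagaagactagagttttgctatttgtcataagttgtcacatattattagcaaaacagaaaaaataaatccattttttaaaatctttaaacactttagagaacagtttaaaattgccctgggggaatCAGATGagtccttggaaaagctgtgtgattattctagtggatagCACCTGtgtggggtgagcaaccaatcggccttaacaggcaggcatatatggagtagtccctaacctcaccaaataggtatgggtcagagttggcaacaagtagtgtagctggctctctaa
RefSeq windows were found for 6 of the 8 genes, 7 windows in all. An E-box was in 5 of these 7 windows, and in 72.3% of all 32851 windows of that length. The Gpr3 window and a further window of Ybx2 held none, so 5 of the 6 genes had an E-box. The letters TAATTA or TAATTG (both strands), which the oocyte factor Nobox is known to bind, were in windows of 0 of the 6 genes and in 12.4% of all windows.

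The letters bound by Cpeb1 itself, TTTTAT or TTTTAAT, were searched on the sense strand of the last 100 bases of the longest GENCODE transcript of each of the 8 genes. They were found in Btg4 and Ybx2, and in 17.8% of the 19744 genes with a trailer of at least that length. The polyadenylation signal AATAAA or ATTAAA was in the last 40 bases of neither of these 2 transcripts, and in 73.7% of the 19744 genes. Whether their annotated ends are true poly(A) ends was not tested. The matches, in capitals within 30 bases of trailer, begin 67 and 62 bases before the annotated ends.
Btg4: ataaatccctTTTTATgtctttttaaaagt
Ybx2: tctgaagccaTTTTATgaactgtcatgtgc

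Mos is the kinase at the head of the MAP kinase cascade that holds the mature oocyte at the second metaphase. Its gene lies on chromosome 4 from 3870658 to 3872105. It stood at 0.433, 0.217 and 0.128 FPKM in cKO ovaries, against 0.648, 0.456 and 0.492 FPKM in wild type, about 2 to 3.9 fragments per cKO library and 6.8 to 11.6 per wild type library. The cKO values were all lower, although cKO replicate 1 at 0.433 FPKM and wild type replicate 2 at 0.456 FPKM lay close together. The means were 0.260 ± 0.157 FPKM in cKO ovaries, against 0.532 ± 0.102 FPKM in wild type, a ratio of 0.488 (SD, n = 3 each; exact permutation p = 0.1). Without a filter limma gave a log2 fold change of -0.29 (SE 0.11, adjusted p = 0.381).

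Gpr3 and Pde3a act on opposite sides of cyclic AMP. Gpr3 is a constitutively active receptor whose signal through Gs keeps cyclic AMP high and the oocyte in prophase. It lies on chromosome 4 from 133209340 to 133212536 and stood at 1.84, 1.56 and 2.89 FPKM in cKO ovaries, against 1.67, 0.891 and 1.57 FPKM in wild type. The groups overlapped, with cKO replicate 3 the highest and wild type replicate 2 the lowest (log2 fold change 0.38, SE 0.21, limma adjusted p = 0.45). In GENCODE 204 exon bases of Gpr3 lie over Cd164l2 on the opposite strand. Cd164l2 averaged 13.7 ± 4.64 FPKM in cKO ovaries, against 12.3 ± 3.47 FPKM in wild type (SD, n = 3 each), and no source used here gives whether counting used strand.

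Pde3a is the phosphodiesterase that hydrolyses cyclic AMP in the oocyte when meiosis resumes, and it is also made in vascular smooth muscle and other cells. It lies on chromosome 6 from 141249269 to 141506862. It stood at 1.68, 1.88 and 2.04 FPKM in cKO ovaries, against 2.97, 3.17 and 3.05 FPKM in wild type. All cKO values were lower, and both groups were tight before rescaling. The means were 1.87 ± 0.180 FPKM in cKO ovaries, against 3.06 ± 0.102 FPKM in wild type (SD, n = 3 each). The ratio was 0.61, and the exact permutation p was 0.1. The log2 fold change was -0.50 (SE 0.11, limma adjusted p = 0.148). It was negative in all 21 fits that tested the gene, from -0.69 to -0.46, with adjusted p from 0.0831 to 0.535. Its transcript of 12302 bases gave about 147 to 302 fragments per cKO library and 410 to 530 per wild type library. In GENCODE 741 of its exon bases lie over Gm28523, an antisense RNA.

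By mean FPKM the order from high to low in cKO was Ybx2, Cpeb1, Gpr3, Pde3a, Patl2, Mos, Btg4 and Zar1, and in wild type Ybx2, Cpeb1, Pde3a, Gpr3, Btg4, Mos, Zar1 and Patl2. In cKO the ranges of Gpr3 and Pde3a overlapped, as did those of Patl2 and Mos and of Mos and Btg4. In wild type the overlapping neighbours were Gpr3 and Btg4, Mos and Zar1, and Zar1 and Patl2. Among the cKO libraries Pde3a lay above Gpr3 in replicate 2 alone, and it lay above Gpr3 in each wild type library.

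Most of the genes have paralogs that other cells use, and reads of close copies may be shared between them. Of 13 paralogs 10 were tested and 0 passed limma. An unadjusted p under 0.05 was found for 1 of the 10, against 14.2% of all tested genes. The median log2 fold change of the 10 was 0.14, against 0.08 over all tested genes. After median-of-ratios scaling these medians were 0.07 and 0. For storage the paralogs Ybx1 and Ybx3, Y-box proteins of most tissues, outranked Ybx2: Ybx1 stood at 77.7, 59.5 and 54.1 FPKM in cKO ovaries, against 49.6, 52.5 and 51.4 FPKM in wild type. Within the CPEB family the order was the reverse, with Cpeb1 above Cpeb4 (7.71 ± 0.423 FPKM in cKO ovaries, against 6.70 ± 0.266 in wild type), Cpeb2 (4.69 ± 0.116 FPKM in cKO and 4.75 ± 0.250 in wild type) and Cpeb3 (4.15 ± 0.669 FPKM in cKO and 4.23 ± 0.436 in wild type; SD, n = 3 in each group). Patl1, the paralog of somatic P-bodies, stood at 11.8 ± 0.707 FPKM in cKO ovaries, against 10.5 ± 0.386 FPKM in wild type (SD, n = 3 each). Zar1l was detected in wild type replicate 3 alone, at 0.122 FPKM.

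The antiproliferative genes Btg1, Btg2 and Btg3 were far above Btg4 in level. Btg2 stood at 82.4, 74.3 and 77.6 FPKM in cKO ovaries, against 88.1, 87.4 and 85.4 FPKM in wild type (log2 fold change -0.15, limma adjusted p = 0.542), lower in each cKO library by a small margin. Btg3 stood at 18, 13.6 and 10.9 FPKM in cKO ovaries, against 10.5, 11.2 and 8.42 FPKM in wild type (log2 fold change 0.44, SE 0.18, limma adjusted p = 0.335). The receptors Gpr6 and Gpr12, also linked to Gs, were listed at 0 in all cKO libraries and each in 2 of 3 wild type libraries, where the remaining values were 0.0429 and 0.105 FPKM. Gpr3 was thus the receptor of this trio with a level above 1 FPKM. Pde3b, which hydrolyses cyclic AMP in fat and liver, stood at 2.50, 1.59 and 1.98 FPKM in cKO ovaries, against 1.76, 1.43 and 2.11 FPKM in wild type, and its groups overlapped where those of Pde3a did not.

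**Figure D2:**
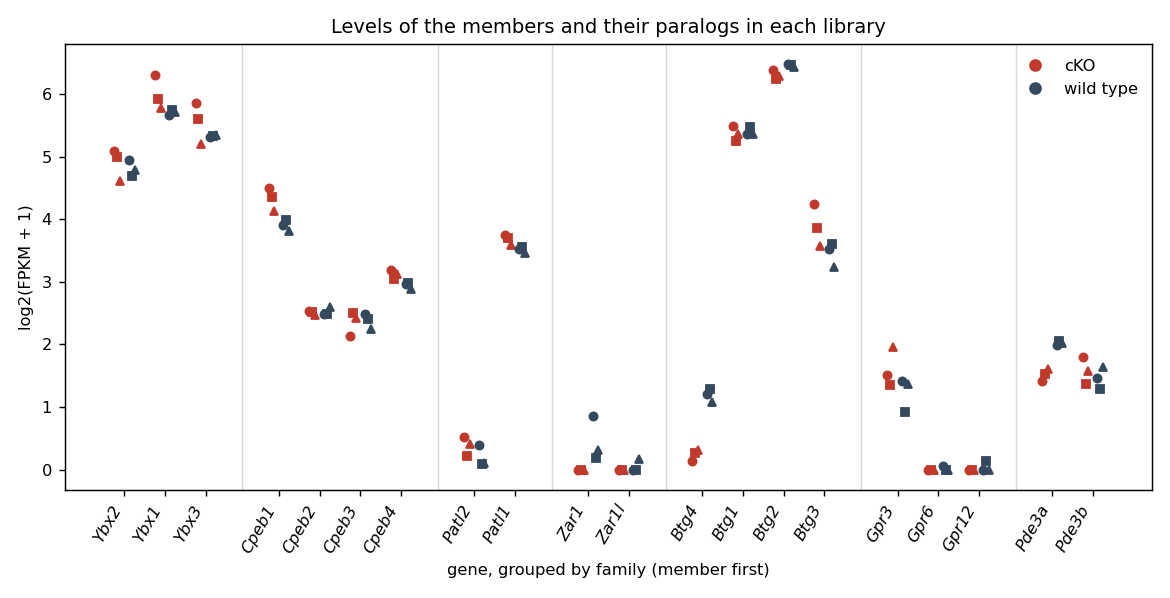
Level of each of 7 genes and of their paralogs in each library as log2(FPKM + 1), grouped by family, cKO left of wild type for each gene and replicates 1, 2 and 3 as circle, square and triangle. Ybx1, Ybx3, Patl1 and the 3 BTG paralogs lie above Ybx2, Patl2 and Btg4, while Cpeb1 and Gpr3 lie above their paralogs; Mos has none here.

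The partners of these genes were followed in 3 lists. Of the 28 genes of masking, storage and cytoplasmic polyadenylation, 23 were tested and 0 passed limma. An unadjusted p under 0.05 was found for 5 of the 23, against 14.2% of all tested genes. The log2 fold changes of the 23 were positive in 20 and had a median of 0.19. Of all tested genes 65.2% were positive, with a median of 0.08. After median-of-ratios scaling these medians were 0.11 and 0. Dazl, which binds germ cell messages and activates their translation, had the smallest p. It stood at 39.0, 27.6 and 16.8 FPKM in cKO ovaries, against 9.65, 12 and 9.34 FPKM in wild type, with no overlap between the groups (log2 fold change 1.28, SE 0.27, limma adjusted p = 0.127). After median-of-ratios scaling the log2 fold change of Dazl was 1.19 (limma adjusted p = 0.043), in a fit where 0.764% of tested genes were called higher and 0.53% lower. With that scaling and no filter its adjusted p was 0.12, and with the replicate number as a block it was 0.141; over all fits run, it ranged from 0.0341 to 0.542. Lsm14b, a component of stored ribonucleoprotein particles, stood at 66.9, 55.9 and 44.4 FPKM in cKO ovaries, against 43.6, 39.7 and 38.6 FPKM in wild type (log2 fold change 0.43, limma adjusted p = 0.3).

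Among the 5 storage genes under the filter, Eif4e1b, the oocyte cap-binding protein, was the one with groups that did not overlap. It and Fbxo43 are named after their values were seen. It had 0.177, 0 and 0.0508 FPKM in cKO ovaries, against 0.432, 0.484 and 0.446 FPKM in wild type. Of the 2 genes of meiotic arrest and resumption under the filter, Fbxo43 (Emi2), the inhibitor of the anaphase-promoting complex that keeps the second metaphase arrest, also had groups apart, in the other direction. Fbxo43 had 0.603, 0.466 and 0.475 FPKM in cKO ovaries, against 0.258, 0.23 and 0.296 FPKM in wild type. Among all genes of such low level 7.07% were apart with cKO below and 5.23% with cKO above. Of the general polyadenylation enzymes, Tent2, the cytoplasmic poly(A) polymerase, stood at 13.6, 8.87 and 9.74 FPKM in cKO ovaries, against 8.55, 9.77 and 8.58 FPKM in wild type, which overlapped.

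Of the 31 genes of deadenylation and decay, all 31 were tested and 0 passed limma. An unadjusted p under 0.05 was found for 3 of them, against 14.2% of all tested genes. The median log2 fold change was 0.08, the same as that of all tested genes, and both were 0 after median-of-ratios scaling. Lsm1, a subunit of the ring that promotes decapping, stood at 8.80, 6.83 and 6.04 FPKM in cKO ovaries, against 5.38, 4.29 and 5.09 FPKM in wild type (limma adjusted p = 0.231). Cnot1, the scaffold of the deadenylase that Btg4 recruits, stood at 56.9, 47.1 and 48.2 FPKM in cKO ovaries, against 42.6, 42.1 and 38.5 FPKM in wild type (log2 fold change 0.29, limma adjusted p = 0.33), with every cKO value above every wild type value.

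The 38 genes of cyclic AMP signalling, of maturation promoting factor (MPF) and of the cytostatic factor (CSF) cascade formed the last list. Of these, 36 were tested and 0 passed limma. An unadjusted p under 0.05 was found for 1 of the 36, against 14.2% of all tested genes. The median log2 fold change of the 36 was 0.04. The median was -0.03 after median-of-ratios scaling. Map2k1, the MAP kinase kinase downstream of Mos, stood at 16.1, 11.7 and 11.9 FPKM in cKO ovaries, against 9.36, 8.08 and 9.56 FPKM in wild type (log2 fold change 0.50, SE 0.14, limma adjusted p = 0.201). Wee1, which inhibits Cdk1, stood at 13.1, 10.1 and 8.48 FPKM in cKO ovaries, against 8.12, 8.22 and 8 FPKM in wild type (limma adjusted p = 0.365). Gnas, the Gs subunit through which Gpr3 signals, stood at 298.4, 242.1 and 230.1 FPKM in cKO ovaries, against 247.9, 248.2 and 251.1 FPKM in wild type. That gene and Tent2 were chosen for their roles after the values were seen.

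**Figure D3:**
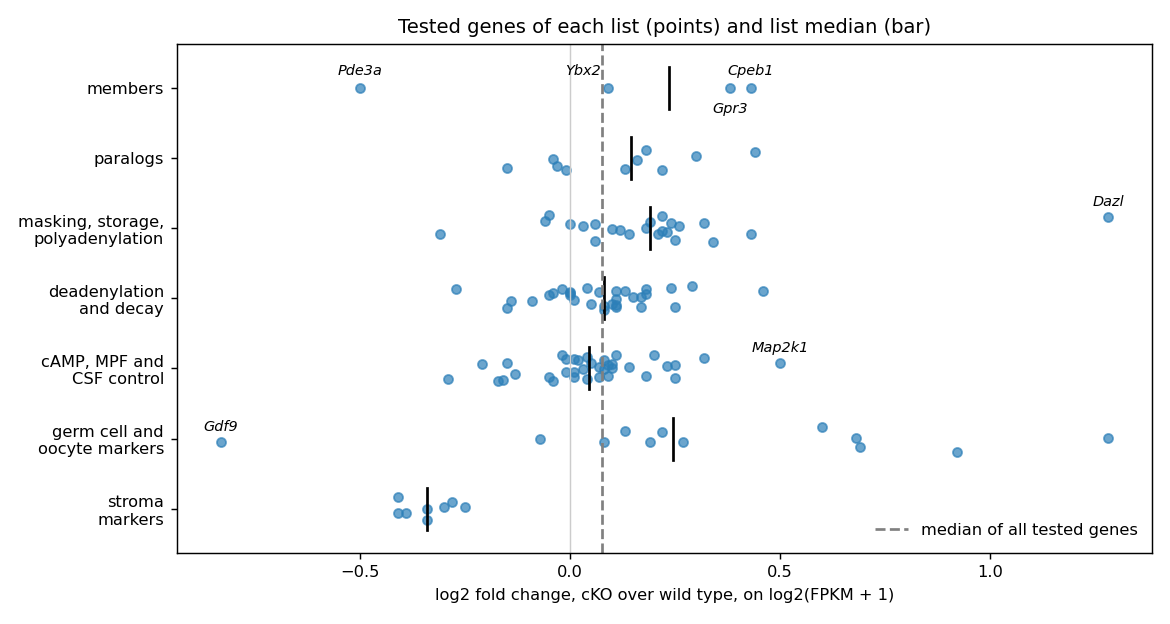
Log2 fold change of cKO over wild type, on log2(FPKM + 1), for the tested genes of each list (points, spread vertically for legibility) with the list median as a bar and the median of all tested genes, 0.08, dashed. Pde3a lies at -0.50 and Cpeb1 at 0.43; the 8 stroma markers all lie below 0.

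By profile over the 6 libraries, with log2(FPKM + 1) centred for each gene, the nearest genes to Cpeb1 were Atp6v1c1 and Siah1a (root mean square difference 0.037 and 0.043 log2 units among 11966 genes searched). Those nearest to Pde3a were Col14a1, a fibril-associated collagen, and Pear1, a receptor of endothelial cells and platelets (0.037 and 0.048). Col14a1 stood at 1.80, 1.94 and 2.11 FPKM in cKO ovaries, against 2.96, 3.52 and 3.17 FPKM in wild type. The nearest genes to Ybx2 were Mrpl4 and Csf2ra (0.03 and 0.039), and to Gpr3 Frat2 and Rhox8 (0.1 and 0.12). Between Cpeb1 and Ybx2 themselves the difference was 0.2, and between Cpeb1 and Pde3a 0.49. With 6 libraries and this many genes some profiles lie close whatever the genes do.

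The markers of other cell types and of germ cells are given beside these values. The 12 germ cell and oocyte markers summed to 321.9, 234.8 and 182.0 FPKM in cKO ovaries, against to 161.1, 166.8 and 156.9 FPKM in wild type. Of them 10 had positive log2 fold changes, as did 65.2% of all tested genes. With limma 0 passed, and 5 had an unadjusted p under 0.05, against 14.2% of all tested genes. After median-of-ratios scaling 3 were called higher and 1 lower, where 1.29% of tested genes were called. Dazl belongs to this list as well as to the storage list. The markers named here were chosen after the values were seen. Those called higher after scaling were Dazl, Kit and Sohlh1, and the marker called lower was Gdf9. None of these was called with that scaling and no filter (limma adjusted p = 0.11 for Gdf9). Kit, the receptor tyrosine kinase of germ cells, stood at 74.7, 57.1 and 51.3 FPKM in cKO ovaries, against 37.7, 37.8 and 35.8 FPKM in wild type (log2 fold change 0.69, limma adjusted p = 0.139, and 0.0223 after scaling). Sohlh1, a transcription factor of early oocytes, stood at 54.2, 34.4 and 28.9 FPKM in cKO ovaries, against 20.9, 19.3 and 18.4 FPKM in wild type (log2 fold change 0.92, limma adjusted p = 0.148, and 0.0411 after scaling). Every cKO value of both genes lay above every wild type value, as it did for Dazl, Lhx8 and Taf4b. Among all tested genes 15.5% were apart in that direction and 7.03% in the other. The negative log2 fold changes were those of Ddx4 and Gdf9. Ddx4, the germ cell helicase, stood at 6.53, 4.34 and 3.53 FPKM in cKO ovaries, against 4.49, 5.69 and 4.72 FPKM in wild type, and Gdf9, a growth factor of growing oocytes, at 2.81, 2.50 and 2.52 FPKM in cKO, against 7.03, 5.50 and 4.10 FPKM in wild type (log2 fold change -0.83, limma adjusted p = 0.114, and 0.039 after scaling). In the cKO libraries the summed germ cell markers and Cpeb1 were higher, and Btg4 and Mos were lower, as was the marker Gdf9. Zar1 was listed at 0 there, a lower level resolved against wild type replicate 1 alone. The groups overlapped for Ddx4, Figla (log2 fold change 0.13), Nobox (0.08), Dppa3 (0.27), Tex101 (0.19) and Mael (0.60). The sum uses FPKM that were not rescaled, and markers of high level such as Kit weigh most in it. The part of germ cell number or oocyte growth in these values was not tested.

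The 8 stroma markers summed to 779.6 to 858.2 FPKM in cKO ovaries, against to 1017.6 to 1063.4 FPKM in wild type, and the 6 endothelial markers to 56.3 to 67.3 FPKM in cKO and 70.3 to 87.1 FPKM in wild type. All of them had negative log2 fold changes that did not pass limma, and none was at 0 throughout. After median-of-ratios scaling 1 stroma marker, Nr2f2, and 0 endothelial markers were called lower, where 0.53% of tested genes were. With that scaling and no filter Nr2f2 was not called (limma adjusted p = 0.0769). Pde3a was lower in the same libraries as these lists, and their part in its value was not tested. The 6 surface epithelium markers summed to 71.9 to 101.6 FPKM in cKO ovaries, against 124.9 to 146.7 FPKM in wild type, and of these Upk1b fell (log2 fold change -1.47, limma adjusted p = 0.0428). That call was lost with no filter (limma adjusted p = 0.106). After median-of-ratios scaling 4 of the 6 were called lower, against 0.53% of tested genes. With that scaling and no filter Krt19 was no longer called (limma adjusted p = 0.103). Upk1b (0.0273), Upk3b (0.0474) and Lhx9 (0.0438) were still called in that fit. The 10 pregranulosa markers summed to 372.6 to 470.7 FPKM in cKO and 350.7 to 352.3 FPKM in wild type, and the 8 erythroid and macrophage markers to 111.7 to 298.3 FPKM in cKO and 81.4 to 447.6 FPKM in wild type.

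**Figure D4:**
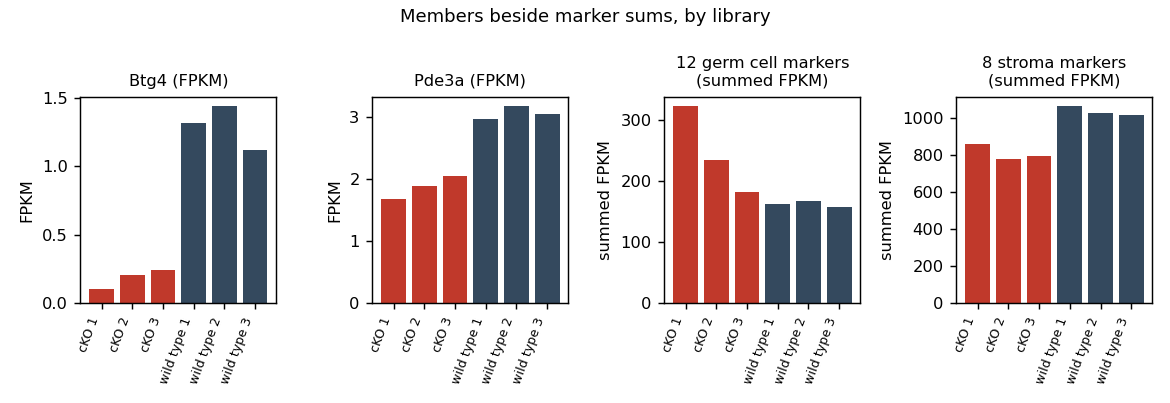
FPKM of Btg4 and Pde3a and summed FPKM of 12 germ cell and 8 stroma markers in each library, bars from 0, cKO left of wild type. The Btg4 bars of cKO lie at 0.102 to 0.241 FPKM. The germ cell sums of cKO, not rescaled, lie at 182 to 321.9 FPKM, above all wild type sums. Pde3a and the stroma sum are both lower in each cKO library.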

How the data were processed

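The authors deposited FPKM values per gene symbol for 3 cKO and 3 wild type libraries of day 1 ovary, and each column name matched 1 sample title. Per the labels' protocols, libraries were made from amplified cDNA. The submitters' processing notes list, with no role for any of them, the build mm10 and the tools featureCounts 2.0.6, HISAT2 2.2.1 and STAR 2.7.11a. Which program and annotation gave the FPKM is not stated; the deposited table's name points to removal of duplicates. FPKM of one library falls when a few transcripts take up its fragments, so rescaled fits were run too.

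The 12442 genes whose mean over the 6 libraries reached 1 FPKM were taken to log2(FPKM + 1) and tested with limma (version 3.58.1, run under R version 4.3.3; trended prior variance), two-sided, with Benjamini-Hochberg adjustment over all of them. The fit was also run on simulated data, with noise drawn independently for each gene and library and no shift of a whole library. That run therefore does not show how the fit handles cKO replicate 1. Depth was estimated as the smallest number of fragments that made low FPKM values whole in 2437 genes with 1 annotated transcript of at least 1500 bases, assuming fragments of 200 bases; 66.8% to 72.3% of values of 1 to 6 fragments fell within 0.1 of whole. Fragment numbers per gene use the longest coding transcript of GENCODE M21 and are approximate; they cover counting error only. Promoters and positions are from RefSeq (GRCm38.p6).

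The 8 genes and all lists were chosen with earlier results of these data known. The text names the 8 genes, all paralogs, in each further list the genes called or else the 2 with the smallest p, and for the tested genes the 2 nearest profiles, predicted loci left out. Exceptions are marked. The search of transcript ends for the Cpeb1 letters was chosen after the values were seen.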

Additional observations from a re-analysis of the deposited data

How the results depend on the processing

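Of the 4 genes tested in the fit reported 0 were called, as in the 11 alternatives that kept a filter (4 tested, or 2 with a mean of 5 FPKM required). Patl2, Zar1, Btg4 and Mos were tested only in the fits without a filter, where 0 of 8 were called except after median-of-ratios scaling, with 1, Btg4. Combinations with no filter were added after seeing the data. The number of genes called over the whole table was 15, against 34 with a pseudocount of 0.1, 5 with no filter, 23 when a mean of 5 FPKM was required (which leaves out Gpr3 and Pde3a), 161 with median-of-ratios scaling and 236 with quantile normalization. Leaving out 1 library gave 2 to 89, the most without cKO replicate 1 (89) and cKO replicate 3 (74). With no filter the count was 48 with median-of-ratios scaling, 5 with a pseudocount of 0.1 and 1 to 3 when 1 library was left out. With the replicate number as a block 2 genes were called, and 1 with the block and no filter; same-numbered libraries deviated together with r of -0.011, 0.039 and 0.068 across genes, so the numbers are not taken to pair the libraries. The signs of Cpeb1, Gpr3, Pde3a, Btg4, Mos, Zar1 and Patl2 held in each fit that included them, while Ybx2 was positive in 19 and negative in 3. Depth limits Btg4, Mos, Patl2 and Zar1 most: no cKO library held more than 3.8, 3.9 and 9 estimated fragments of the first 3, and Zar1 was listed at 0.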
